A study of Mus musculus with 6 samples.

Results

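Antigen presentation and T cell ligand genes form a group of 4 genes in the reperfused mouse heart: Nlrc5, H2-Q6, Cd274 and Cd80. They are 4 of the 149 genes in the authors' deposited table, and were chosen by name from that table. The authors had selected its genes on the difference between the groups described here, with FDR (adjusted p-value) up to 0.0487 and log2 fold changes of 1.001 or more in size. The difference between groups is therefore what chose the 4 genes, and it is given below as a description without a test.

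The study compared hearts after ischaemia-reperfusion (IR) with and without trimethylamine N-oxide (TMAO), a metabolite that the liver makes from trimethylamine of the gut bacteria. All mice were male, wild-type C57BL/6 animals whose left anterior descending coronary artery was closed for 45 min and reopened for 24 h. The IR group had no TMAO. The TMAO+IR group drank water with 0.12% TMAO for 4 weeks before and also during the procedure. Each group had 3 libraries of poly(A)-selected RNA from the reperfused region. No sham-operated group and no group with TMAO alone is among these 6 libraries, and the sources used here give no age of the mice. Libraries are numbered within each group and no animal is named, so the spread between them may be technical.

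MHC class I molecules show peptides from inside a cell to CD8+ T cells and natural killer cells. Nlrc5 encodes a NOD-like receptor family protein that enters the nucleus and switches on class I genes, and H2-Q6 encodes a class Ib heavy chain of the Q region. Cd274 (PD-L1) and Cd80 (B7-1) encode ligands on the surface of antigen-presenting and other cells. PD-L1 binds PD-1 and restrains T cells, while CD80 binds CD28 to costimulate them and CTLA-4 to restrain them. Nlrc5, class I genes and Cd274 are known to be induced by interferon gamma, and Cd80 is known as an activation marker of macrophages and dendritic cells.

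All 4 genes were higher in TMAO+IR, at 2.04 to 2.65 times the IR level in counts scaled by library size. However, H2-Q6 turned to a log2 value of -0.050 when libraries were rescaled within the list, which centres a list chosen for its change. For comparison, 122 of the 149 listed genes were higher in TMAO+IR (81.9%). Against the about 12721 genes that the deposited FDR and p-values imply were tested, these 122 make 0.959%. In none of the 4 genes did scaled counts overlap between the groups, and the same was true of 145 of the 149 listed genes (97.3%). The rule that chose the genes used this contrast, so nothing is read from these shares. In bulk tissue, fewer or more cells of a type and less or more RNA per cell cannot be told apart.

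The promoter sequence of H2-Q6 is shown because class I promoters carry short elements known to bind NF-kB, interferon regulatory factors and CCAAT-binding proteins, and that of Cd274 because it is the interferon-inducible ligand of the group. Each run gives the 250 bases before the RefSeq start site on the plus strand of GRCm38.p6, 5′ to 3′. The H2-Q6 stretch is chr17:35424600-35424849 and the Cd274 stretch is chr19:29367188-29367437. Capitals mark the motif matches named in the next paragraph.
H2-Q6: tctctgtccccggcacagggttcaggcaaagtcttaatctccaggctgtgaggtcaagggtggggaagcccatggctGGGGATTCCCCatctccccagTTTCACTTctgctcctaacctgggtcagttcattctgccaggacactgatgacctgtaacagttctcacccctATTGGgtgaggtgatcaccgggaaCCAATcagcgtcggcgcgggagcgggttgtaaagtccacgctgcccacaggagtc
Cd274: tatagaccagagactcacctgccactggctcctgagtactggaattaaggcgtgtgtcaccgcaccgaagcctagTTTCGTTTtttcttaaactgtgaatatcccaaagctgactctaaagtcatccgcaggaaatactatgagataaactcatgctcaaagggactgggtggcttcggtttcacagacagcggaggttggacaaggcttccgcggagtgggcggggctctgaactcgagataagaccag

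Motifs were searched on both strands in windows of 300 bases, 250 before to 50 after the start site. RefSeq windows were found for 3 of the 4 genes (H2-Q6, Cd274 and Cd80) and for 109 of the 149 listed genes, some with several windows. The core bound by interferon regulatory factors, AANNGAAA, was found in all 3 windows and in 23.9% of all 32851 windows. In H2-Q6 the match begins 152 bases before the start site and in Cd274 175 bases before it, while in Cd80 it lies 30 bases after it. The NF-kB consensus was found in H2-Q6 alone of the 3, from 173 bases before the start, against 8.46% of all windows. These 2 motifs were added after the sequences had been seen. The CCAAT box was found in H2-Q6 on each strand, 55 and 79 bases before the start, and in 37.4% of all windows. TATAAA was found in Cd80, 4 bases after the start, and in 13.6% of all windows. The full interferon-stimulated response element, GAAANNGAAA, which contains the shorter core, was in none of the 3 windows, against 3.44% of all windows and 8.63% of the 139 windows of listed genes. The gamma-activated site TTCNNNGAA (8.30% of all windows) and the X2 box core TGACG (20.8%) were also in none of the 3. In the 139 windows of listed genes, AANNGAAA was found in 28.1%, the NF-kB consensus in 10.8% and the CCAAT box in 45.3%. There TATAAA was found in 18%, the gamma-activated site in 7.19% and TGACG in 27.3%. The shares of listed and of all windows were not tested against each other. A match here is a description of letters and not a binding site. The RefSeq start of H2-Q6, 35424850, equals that of the GENCODE gene model, whereas the Cd274 starts are 29367438 and 29367455, and the Cd80 starts are 38458933 and 38455561.

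Library depth, estimated by dividing counts by FPKM, ran from 18370943 to 22442171 fragments. Per library, reads on listed genes numbered 73268 to 110979 with IR alone and 141123 to 232484 with TMAO. Among the 100 higher listed genes with a mean of at least 50 counts, IR replicate 3 was the lowest IR library in 70 and IR replicate 2 the highest in 77. TMAO+IR replicate 3 was the lowest TMAO+IR library in 82 of them. None of the 7 cardiomyocyte markers is among the listed genes, so the labelled tissue was not checked here.

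Nlrc5, the class I transactivator, had the largest fold change of the 4 genes. Its FPKM values (fragments scaled to transcript length and library depth) were 1.31, 1.99 and 1.26 in IR replicates 1, 2 and 3, and 4.94, 5.09 and 3.38 in TMAO+IR replicates 1, 2 and 3. IR replicate 2 was the highest IR library and TMAO+IR replicate 3 the lowest with TMAO, and the groups lay apart. The lowest TMAO+IR library stood at 1.70 times the highest IR library. The group means were 1.52 ± 0.41 and 4.47 ± 0.95 FPKM (SD, n = 3 each).
The raw counts behind these levels were 165, 284 and 142 in IR and 466, 584 and 407 in TMAO+IR. From scaled counts Nlrc5 was 2.65-fold higher in TMAO+IR (edgeR log2 fold change 1.40 ± 0.37, SE), and from mean FPKM 2.94-fold. In the authors' deposited table its log2 fold change was 1.56 and its FDR 0.000187. Nlrc5 (ENSMUSG00000074151) lies on the plus strand of chromosome 8 from 94434356 to 94527272 of GRCm38. It has 9 annotated transcripts, the longest with 53 exons and 7578 bases. An antisense-strand lincRNA, 9330175E14Rik, overlaps its exons over 78 bases.

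H2-Q6, the class I heavy chain gene, was the most abundant of the 4. Its values were 21.31, 37.22 and 33.99 FPKM in IR replicates 1, 2 and 3, and 66.69, 72.03 and 55.66 FPKM in TMAO+IR replicates 1, 2 and 3. IR replicate 1 stood lowest, and no IR library reached a TMAO+IR library. The means were 30.8 ± 8.41 and 64.8 ± 8.35 FPKM (SD, n = 3 each). Raw counts were 785, 1357 and 1544 in IR and 2177, 2772 and 2020 in TMAO+IR. H2-Q6 was 2.04-fold higher in scaled counts (edgeR log2 fold change 1.03 ± 0.41, SE) and 2.10-fold in mean FPKM. Its log2 fold change of 1.07 in the authors' deposited table stood close to the smallest value in it (1.001), with an FDR of 0.0148.
Without IR replicate 1, the lowest library, the edgeR log2 fold change of H2-Q6 was 0.81. When libraries were rescaled within the list, which lowers the median of all listed genes by 1.01 on the log2 scale, H2-Q6 came to -0.050, slightly below the level at which the list is centred.

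Reads of H2-Q6 can be shared with near-identical relatives, and the sources used here do not give how the authors counted such reads. Of the 2036 stretches of 50 bases in its longest transcript (2085 bases), 35.0% also occur in a transcript of another gene. H2-Q7 held 13.9% of the 2036, H2-Q4 12.3%, H2-Q5 5.99% and H2-D1 5.45%. Genes without an H2 name also held some, such as D10Wsu102e (5.35%) and Efr3a (4.76%), among 50 other genes in all. At 100 bases the share with any other gene was 13.0% and that with H2-Q7 8.36%. H2-Q6 is therefore uncertain as a single gene, and its value may include reads of other genes, among them its relatives. None of these relatives is among the listed genes, so their levels were not analysed here. The longest transcripts of Nlrc5 and Cd80 shared no stretch of 50 bases with any other gene, and that of Cd274 shared 12.4%, of which 10.4 percentage points lay in the antisense gene AC119228.1. H2-Q6 (ENSMUSG00000073409) lies within the MHC on the plus strand of chromosome 17 from 35424850 to 35430055, with 2 annotated transcripts.

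**Figure D1:**
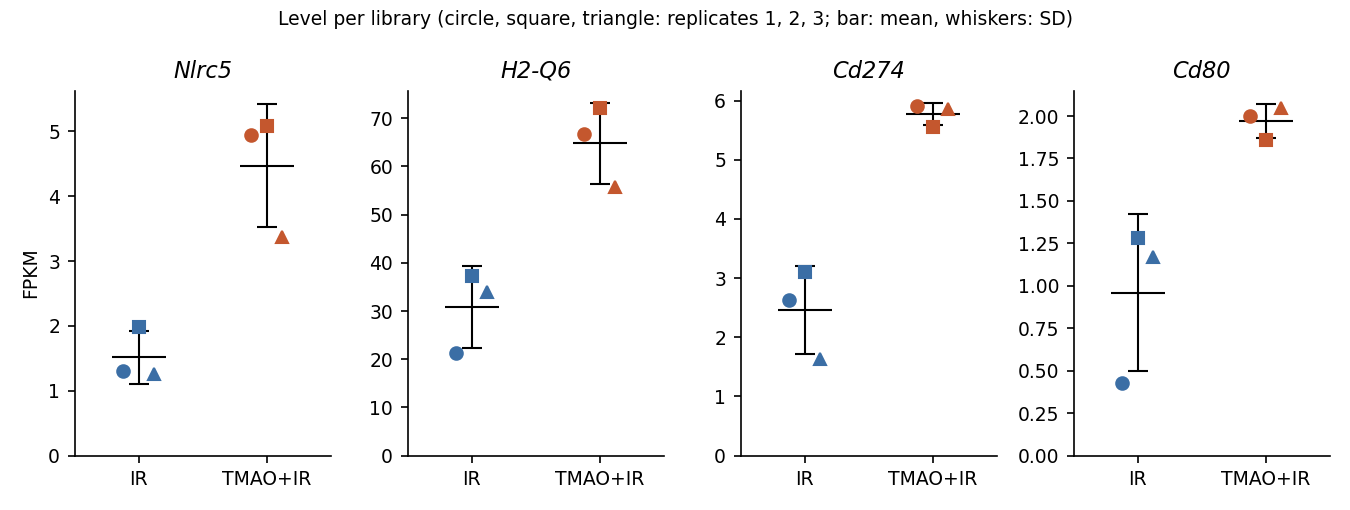
Level of each gene in FPKM (vertical axis, from 0, with its own scale in each panel) in the 3 IR and 3 TMAO+IR libraries, with the group mean and SD. In all 4 genes the TMAO+IR libraries lie above the IR libraries in FPKM, with the smallest gap in Cd80 (1.28 against 1.86 FPKM). H2-Q6 turns to -0.050 (log2) when rescaled within the list, which centres a list chosen for its change.

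Cd274, which encodes the checkpoint ligand PD-L1, had the tightest TMAO+IR group. Its values were 2.63, 3.10 and 1.64 FPKM in IR replicates 1, 2 and 3, and 5.90, 5.56 and 5.85 FPKM in TMAO+IR replicates 1, 2 and 3. The TMAO+IR libraries were nearly level, whereas IR replicate 3 lay well below the other IR libraries. The means were 2.46 ± 0.75 and 5.77 ± 0.18 FPKM (SD, n = 3 each). Its raw counts were 197, 247 and 133 in IR and 393, 434 and 441 in TMAO+IR. Its scaled counts had a coefficient of variation (CV) of 30.5% in IR and 3.16% in TMAO+IR, where counting alone would give 4.86%. The close agreement of the 3 TMAO+IR values is thus no wider than counting error.
Cd274 was 2.35-fold higher both in scaled counts (edgeR log2 fold change 1.23 ± 0.36, SE) and in mean FPKM. Its FDR of 5.46e-05 was the lowest of the 4 genes and ranked 13 of 149 in the authors' deposited table, with a log2 fold change of 1.23. Cd274 (ENSMUSG00000016496) lies on the plus strand of chromosome 19 from 29367455 to 29388095 and has 1 annotated transcript of 3622 bases in 7 exons. AC119228.1, on the opposite strand, overlaps its exons over 511 bases, and without strand information reads of the pair cannot be told apart.

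Cd80, the costimulatory ligand, was the least abundant and rests on the fewest counts. It measured 0.43, 1.28 and 1.17 FPKM in IR replicates 1, 2 and 3, and 2.0, 1.86 and 2.05 FPKM in TMAO+IR replicates 1, 2 and 3. IR replicate 1 was far below the other IR libraries, and the TMAO+IR libraries were again close together. Group means were 0.96 ± 0.46 and 1.97 ± 0.10 FPKM (SD, n = 3 each). The raw counts were 23, 60 and 52 in IR and 94, 93 and 99 in TMAO+IR. Counting error gives an exact Poisson 95% interval for the 23 reads of IR replicate 1 of 14.6 to 34.5, and for the 60 reads of IR replicate 2 of 45.8 to 77.2. These intervals cover no other error, and they do not overlap. The CV of the scaled counts was 40.9% in IR, above the 14.9% of counting alone, and 8.45% in TMAO+IR, below the 10.2% of counting alone.
Cd80 was 2.29-fold higher in scaled counts (edgeR log2 fold change 1.20 ± 0.32, SE) and 2.05-fold in mean FPKM. In the authors' deposited table it had a log2 fold change of 1.04 and an FDR of 0.0390, rank 138 of 149, near both limits of the list. The higher gene nearest to the fold limit was Cyp1b1, with 1.001 in that table, and genes beyond the limits were not analysed here. Without IR replicate 1 the edgeR log2 fold change of Cd80 was 0.90. Cd80 (ENSMUSG00000075122) lies on the plus strand of chromosome 16 from 38455561 to 38496335, with 3 annotated transcripts of up to 3173 bases.

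The order of levels per length was H2-Q6, Cd274, Nlrc5 and Cd80, and it held in each of the 6 libraries. In IR the ranges of neighbours overlapped for Cd274 (1.64 to 3.10 FPKM) and Nlrc5 (1.26 to 1.99), and for Nlrc5 and Cd80 (0.43 to 1.28). In TMAO+IR no neighbours overlapped, with Cd274 from 5.56, Nlrc5 from 3.38 to 5.09 and Cd80 up to 2.05 FPKM.
The balance of the T cell ligands differed widely among IR libraries. The FPKM ratio of Cd274 to Cd80 was 6.12, 2.42 and 1.40 in IR replicates 1, 2 and 3, and 2.95, 2.99 and 2.85 in the TMAO+IR replicates. The TMAO+IR ratios fell inside the IR range, so the ratio of checkpoint to costimulatory ligand did not separate the groups. The ratio of H2-Q6 to its transactivator Nlrc5 was 20.6 ± 5.61 in IR and 14.7 ± 1.56 in TMAO+IR (SD, n = 3 each). The individual ratios of 16.3 to 27.0 in IR and 13.5 to 16.5 in TMAO+IR overlapped. This ratio depends on the unit, since the ratio of count to FPKM varied between libraries for both genes. Scaled counts of H2-Q6 and Nlrc5 were 794 and 167, 1292 and 270, and 1440 and 132 in IR replicates 1, 2 and 3. In TMAO+IR replicates 1, 2 and 3 they were 2480 and 531, 2694 and 568, and 2030 and 409.

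The lowest IR library was replicate 3 for Nlrc5 and Cd274, and replicate 1 for H2-Q6 and Cd80. Neither is particular to these genes, since replicate 3 was lowest in 70 and replicate 1 in 28 of the 100 higher listed genes with a mean of at least 50 counts. The likeness of 2 genes was measured as the root mean square difference of their log2 scaled counts over the 6 libraries, each gene centred on its own mean. All listed genes share the group difference that selected them, so small values are common. Between Nlrc5 and Cd274 the difference was 0.23, and between H2-Q6 and Cd80 0.26. The crossed pairs differed more, from 0.44 for Nlrc5 with H2-Q6 and with Cd80 to 0.50 for Cd274 with Cd80.
Of 116 candidate genes with a mean of at least 50 counts, those closest to Nlrc5 were Il33, an alarmin (0.12), Thbs1, thrombospondin 1 (0.12), and Tnc, tenascin C (0.13). Closest to Cd274 were Iigp1, an interferon-inducible GTPase (0.06), the predicted gene Gm14548 (0.11) and Cfb, complement factor B (0.13). H2-Q6 was closest to Slfn1, a Schlafen gene (0.08), Prg4, which encodes lubricin (0.14), and Samsn1 (0.17). Cd80 was closest to the same 3 genes, Prg4 (0.16), Samsn1 (0.24) and Slfn1 (0.24). None of these closest genes was one of the 4. Among the 116 candidates Cd274 ranked 22 for Nlrc5 and Nlrc5 ranked 23 for Cd274, while Cd80 ranked 8 for H2-Q6 and H2-Q6 ranked 4 for Cd80. Differences and ranks of thinly counted genes include counting error. Counting alone would give a CV of 14.9% in IR and 10.2% in TMAO+IR for Cd80. In IR it would give 12.9% for Samsn1 and 12.1% for Slfn1.
The scaled counts of Iigp1 were 491, 538 and 297 in IR and 1135, 971 and 990 in TMAO+IR. Cd274 had scaled counts of 199, 235 and 124 in IR and 448, 422 and 443 in TMAO+IR. Both were lowest in IR replicate 3. Slfn1 had scaled counts of 46.6, 76.2 and 73.7 in IR and 148, 150 and 116 in TMAO+IR, lowest in IR replicate 1 as H2-Q6 was.

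**Figure D2:**
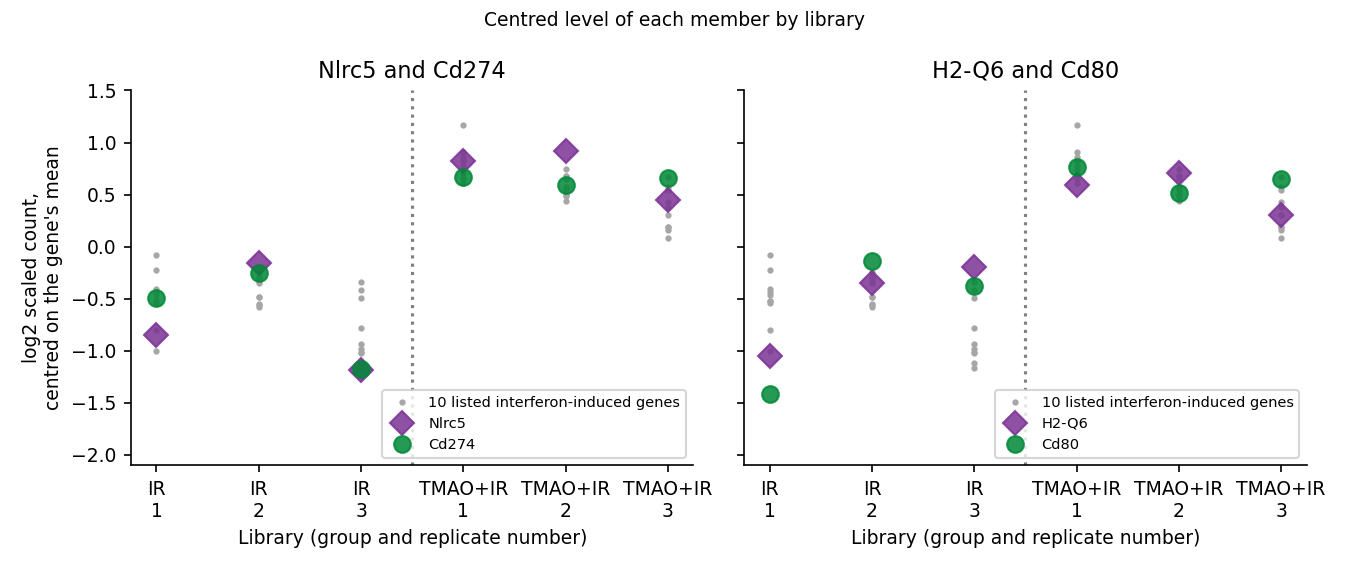
Log2 scaled counts centred on each gene's own mean (vertical axis) in the 6 libraries (horizontal axis), for Nlrc5 with Cd274 and for H2-Q6 with Cd80. Grey points are the 10 listed genes from the chosen list of 52 interferon-induced genes. Nlrc5 and Cd274 are lowest in IR replicate 3, and H2-Q6 and Cd80 in IR replicate 1.

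Few other genes of these pathways are in the deposited table. The 149 listed genes make 1.17% of the about 12721 genes implied tested, so few or no genes of a short gene list need be listed. The gene lists were chosen with earlier results of these data known. Of 28 genes of MHC class I presentation Nlrc5 and H2-Q6 were listed, and of 20 T cell checkpoint and costimulatory ligands Cd274 and Cd80. None of 11 genes of MHC class II presentation was listed, nor any of 14 T cell receptors of these ligands, such as Pdcd1, Cd28 and Ctla4. The levels of unlisted genes were not analysed here, and absence from the list does not show equal levels. Of 22 interferon signalling genes, Jak2, a receptor-associated kinase, was listed, at 8.48 FPKM in IR and 17.9 in TMAO+IR as the authors' means (log2 fold change 1.08 in the authors' deposited table).
Of the 52 genes of a chosen list of interferon-induced genes, 10 were listed. The 149 listed genes make 1.17% of the about 12721 implied tested, and which of the 52 were tested is not known. The 52 were chosen with earlier results of these data known, so nothing is read from this count. They need not include every interferon-induced gene of the deposited table. All 10 listed genes of the 52 were higher in TMAO+IR in that table, as were 81.9% of all listed genes. Their median log2 fold change was 1.09 against 1.17 for all 149 genes. The 10 were Iigp1, Ifit1, Ifi204, Samd9l, Slfn1, Slfn4, Slfn8, Trim30a, Trim30b and Trim30d. Ifit1, which binds foreign RNA ends, had 3.46, 3.54 and 3.53 FPKM in IR and 9.03, 6.73 and 5.66 in TMAO+IR. Its IR libraries were closer together than those of the 4 genes, with a CV of 1.27% in scaled counts. Counting alone would give 7.03%, so nothing is read from this closeness. When libraries were rescaled within the list, Ifit1 (log2 -0.045), Ifi204 (-0.014) and Samd9l (-0.017) turned slightly negative, as H2-Q6 did. IR replicate 3 was the lowest IR library in 7 of the 10 genes and IR replicate 1 in 3, near the 70 and 28 of the 100 higher listed genes with a mean of at least 50 counts.

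Markers of cell types that carry these ligands were mostly not among the listed genes, as holds for most genes. The 149 listed genes make 1.17% of the about 12721 genes implied tested, and which markers were tested is not known. The marker lists were chosen with earlier results of these data known, so nothing is read from how many were listed. Of 52 markers of 9 cell types, 4 were listed and all 4 were higher in TMAO+IR, as were 81.9% of all listed genes. None of the markers of T cells (7), natural killer cells (4), B cells (4), dendritic cells (6) or fibroblasts (4) was listed. Of 8 monocyte and macrophage markers, Ccr2 and Chil3 were listed, with a summed level of 1.06 to 1.83 FPKM in IR and 2.77 to 6.11 in TMAO+IR. Of 7 neutrophil markers Mmp8 was listed, at 3.53 to 6.75 FPKM in IR and 8.89 to 11.7 in TMAO+IR. Of 5 endothelial markers Ackr1 was listed, at 0.80 to 0.88 FPKM in IR and 1.83 to 2.58 in TMAO+IR. These markers moved with the 4 genes, and their part in the difference was not tested. Within the TMAO+IR group, Chil3 (2.47, 4.83 and 2.12 FPKM in replicates 1, 2 and 3) and Ccr2 (77.5, 79.7 and 38.2 scaled counts) were highest in replicate 2. Ackr1 was also highest there (1.94, 2.58 and 1.83 FPKM), whereas Mmp8 was lowest there (9.73, 8.89 and 11.66 FPKM). Nlrc5 and H2-Q6 were highest in replicate 2, as were 54 of the 100 higher listed genes with a mean of at least 50 counts. Replicates 1 and 2 were close in Ccr2 and in Nlrc5 (531 and 568 scaled counts), so no order between these replicates is read. Cd274 and Cd80 were lowest in replicate 2, but the spread of these 2 genes over the TMAO+IR libraries was no wider than counting error, so no order is read from it.

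The deposited annotation places H2-Q6, Cd274 and Cd80 on the cell surface and leaves Nlrc5 outside these terms. They were the only 3 listed genes in the KEGG pathway of cell adhesion molecules. Cd274 and Cd80 were the only 2 listed genes with the gene ontology term for T cell costimulation. Slfn1, one of the genes closest to Cd80 by library, joined Cd274 and Cd80 as the third listed gene with the term for negative regulation of T cell proliferation. In the KEGG pathway of viral myocarditis, H2-Q6 and Cd80 stood with Myh7, the beta myosin heavy chain.

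Counts and FPKM did not give the same fold change in every gene. The ratio of count to FPKM, expressed here as an implied length, varied between libraries, and why it varied was not tested. The length implied by count, FPKM and recovered depth was 3614 to 3626 bases in all 6 libraries for Cd274. That gene has a single annotated transcript and was among the 12 genes used to set the absolute depth. For Nlrc5 the implied length ran from 5022 bases (IR replicate 3) to 6490 (IR replicate 2), for H2-Q6 from 1658 (IR replicate 2) to 2024 (IR replicate 3), and for Cd80 from 1980 (IR replicate 3) to 2586 (IR replicate 1). Scaled counts are free of this term. They gave a smaller fold change than FPKM for Nlrc5 (2.65 against 2.94) and a larger one for Cd80 (2.30 against 2.05, both as ratios of means). In IR replicate 3 of H2-Q6, 1544 reads gave 33.99 FPKM, while in IR replicate 2, with fewer reads (1357), the value was 37.22 FPKM. The highest IR library of H2-Q6 therefore depends on the unit.

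**Figure D3:**
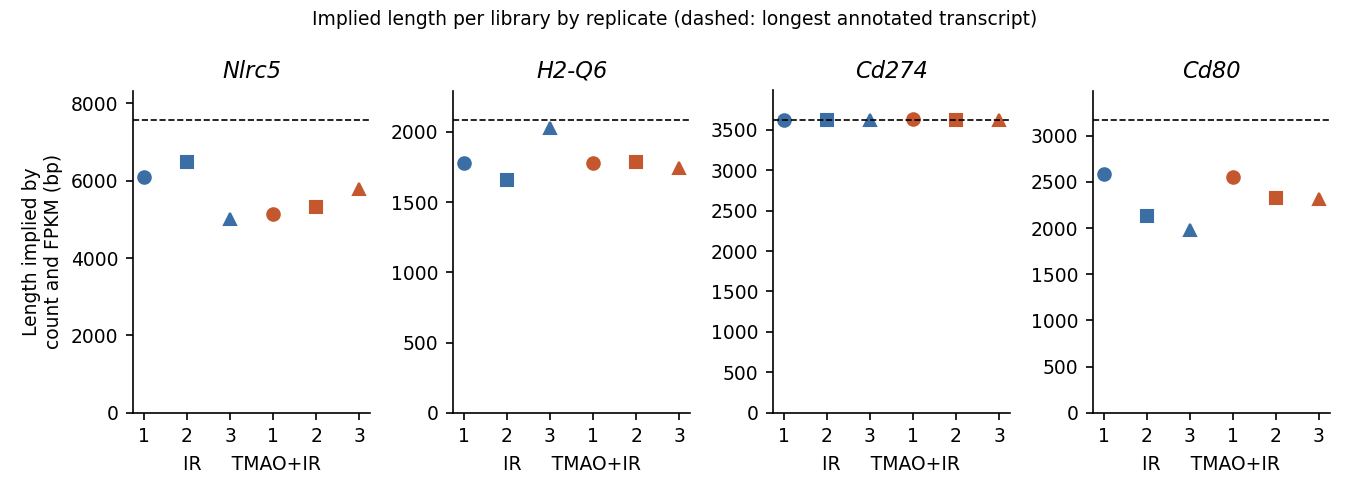
Length in bases implied by count, FPKM and recovered depth (vertical axis, from 0) in each library (horizontal axis, IR in blue and TMAO+IR in orange), with the longest annotated transcript dashed. Cd274 stays at 3614 to 3626 bases, while Nlrc5 spans 5022 to 6490 bases.

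The size of the differences depended mainly on how libraries were scaled. With recovered library sizes the log2 fold change of the 4 genes lay between 0.81 and 1.75 when any 1 library was left out. The median of all 149 listed genes was 1.16 and that of the higher ones 1.22, so Nlrc5 (1.40) stood above both medians and H2-Q6 (1.03) below both. Scaling within the list, by TMM or by DESeq2 size factors, moved the list's median by -1.01 and -1.06. It left Nlrc5 at 0.41 and 0.35, Cd274 at 0.25 and 0.21, Cd80 at 0.18 and 0.13, and H2-Q6 at -0.050 and -0.10. Such scaling assumes that most genes entered are equal between groups, and these genes were selected for differing.

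**Figure D4:**
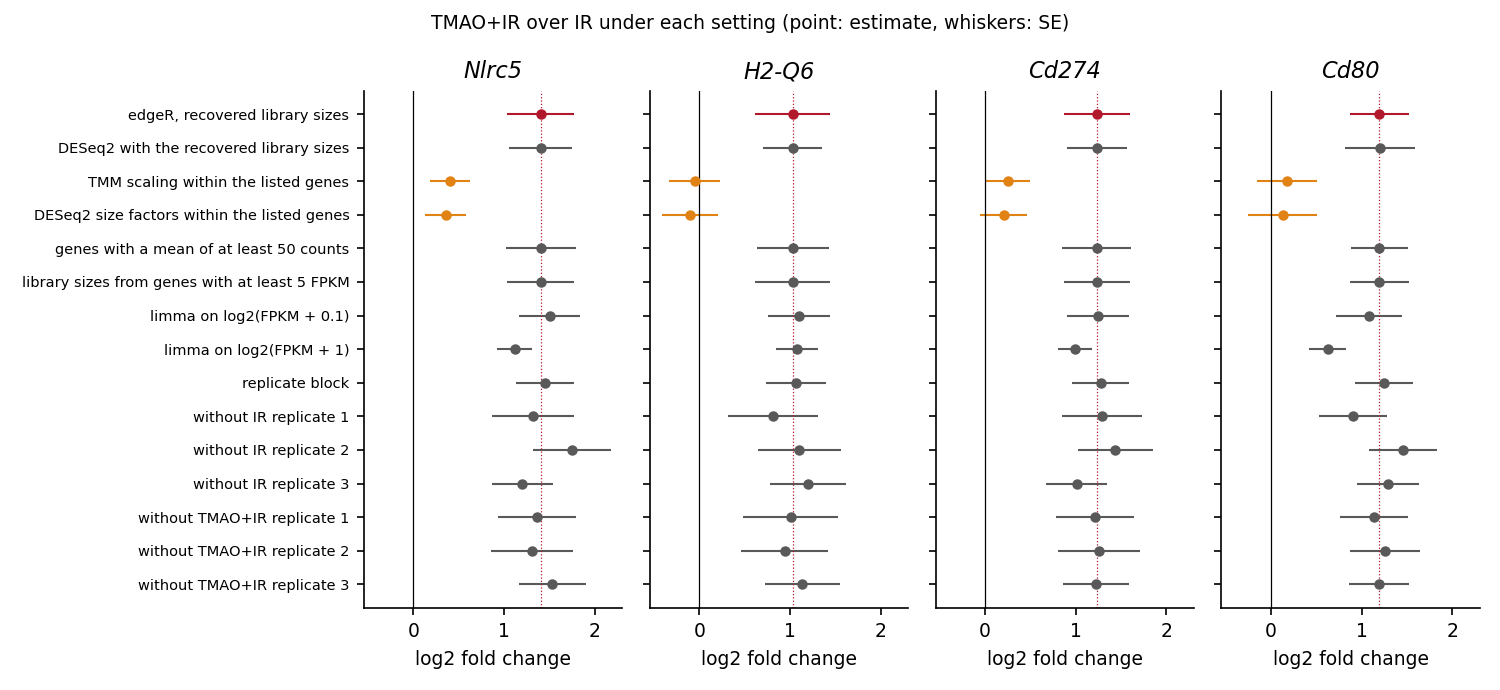
Log2 fold change of TMAO+IR over IR (horizontal axis) with its SE for each gene under each setting (vertical axis). Values stay near the dotted line of the edgeR estimate except with scaling within the list (orange), where H2-Q6 turns to -0.050 and -0.10, and with FPKM + 1 for Cd80 (0.63).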

How the data were processed

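Per the labels' protocols, poly(A) RNA of 6 mouse heart libraries was sequenced, 3 for each group, with group and replicate number as in the titles. Columns headed T-IR were matched to TMAO+IR, the only other group. The submitters' processing notes name the build GRCm38 and the tools StringTie 1.3.1, HISAT2, Bowtie2 2.2.8, edgeR, DESeq2 and fastp 0.18.0, with no role or order. The authors deposited raw counts and FPKM per library for 149 selected genes. The authors' deposited log2 fold change compares mean FPKM, and their p-value and FDR come from a test whose tool the sources used here do not give.

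Because a selected list has no usable column sums, relative library sizes were recovered from the median count to FPKM ratio over the 86 genes that reach 1 FPKM in all libraries. To set the absolute size, 12 of them with 1 transcript in GENCODE M21 were used. All 149 identifiers matched that annotation. A scaled count is the count divided by the relative size. The log2 fold changes and SE come from edgeR 4.0.16 (quasi-likelihood fit, R 4.3.3) over all 149 genes, without filter or p-values. The prior made each gene take the common spread, so the SE hardly reflects a gene's own replicates. The log2 fold changes of the fit were tested on simulated data, in which most genes did not differ and the library sizes were given. That simulation does not check the library scaling or the SE. Alternatives used DESeq2 1.42.0, limma 3.58.1 on log2(FPKM + 0.1) and log2(FPKM + 1), other scalings, a minimum mean of 50 counts, 5 FPKM for library sizes, the replicate number as a block and each library left out. The text names the 4 genes, listed genes of fixed pathway lists and the 3 genes closest to each, from log2(scaled count + 0.5). These genes, lists and alternatives were chosen with earlier results of these data known.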

Additional observations from a re-analysis of the deposited data

How the results depend on the processing

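Of the 56 alternative values of the 4 genes, 47 moved by less than the replicate SD of the gene and kept their direction. TMM scaling within the list gave log2 values of 0.41 for Nlrc5, 0.25 for Cd274, 0.18 for Cd80 and -0.050 for H2-Q6, and DESeq2 size factors within the list gave 0.35, 0.21, 0.13 and -0.10. Both centre a list chosen for its change. With log2(FPKM + 1), a pseudocount close to the IR levels of Cd80 (0.43, 1.28 and 1.17 FPKM) that shrinks its change, Cd80 stood at 0.63. Leaving out 1 library gave 1.20 to 1.75 for Nlrc5, 0.81 to 1.20 for H2-Q6, 1.01 to 1.44 for Cd274 and 0.90 to 1.45 for Cd80.

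With the replicate block the log2 fold changes were 1.45 for Nlrc5, 1.07 for H2-Q6, 1.28 for Cd274 and 1.25 for Cd80. Deviations of same-numbered libraries correlated at -0.32, 0.33 and -0.08 over 117 genes, 2 of the 6 libraries correlated best with their own number, and the labels name no pairs. With 3 libraries a group, and 23 to 99 reads per library, Cd80 had the largest replicate SD of the 4 (0.49 on the log2 scale). Its SE was also the largest with DESeq2 and the recovered library sizes (0.38). Its edgeR SE (0.32) was the smallest of the 4, but that SE hardly reflects a gene's own replicates.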
